A study of Mus musculus with 21 samples.

Results

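The 32 genes described here encode soluble proteins of the complement cascade and of blood coagulation, and they were measured in liver, epididymal fat and skin of mice with and without JNK1. Members were taken by symbol, and they and the marker lists set beside them were chosen with earlier results of these data known. All 32 of the 32 listed symbols were found among 27373 gene names on the array, read by 46 of its 41174 probes. The liver arrays were 3 from JNK1 knock-out (KO) and 3 from wild-type (WT) animals, the fat arrays 4 KO and 3 WT, and the skin arrays 4 KO and 3 WT, which makes 20 of the 21 arrays in the files. KO and WT animals alike were male C57Bl6/J mice aged 45 weeks that had been on a high fat diet between 5 and 44 weeks of age, so no group fed another diet is part of the comparison. No allele is named beyond the JNK1 knock-out, and whether an array stands for 1 mouse or which tissues share a mouse is left unsaid in the labels, so p-values measure only the spread between these samples. The study asked what loss of JNK1, a stress-activated kinase encoded by *Mapk8*, does over long-term high-fat feeding, and the comparisons here are KO against WT within a tissue and liver against fat and skin within a genotype.

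Complement is a chain of proteases and scaffold proteins that tags particles with C3 fragments and can end in a pore in the target membrane. The lectin pathway starts it when mannose-binding lectins (*Mbl1*, *Mbl2*) bring the proteases *Masp1* and *Masp2* to a sugar surface, the convertases are built from *C2*, *C4b* and factor B (*Cfb*) around *C3*, factor I (*Cfi*) cuts them down, and *Hc* (which encodes C5), *C6*, *C8a*, *C8b*, *C8g* and *C9* form the membrane attack complex. Coagulation is another protease chain in which contact factors (*F12*, *F11*, *Klkb1*, *Kng1*) and the vitamin K dependent factors (*F7*, *F9*, *F10*) lead to thrombin (*F2*), with *F5* as a cofactor and *F13b* as a carrier of the clot-linking enzyme. Antithrombin (*Serpinc1*), heparin cofactor II (*Serpind1*), protein C (*Proc*) and protein S (*Pros1*) restrain it, while plasminogen (*Plg*), its inhibitor antiplasmin (*Serpinf2*) and *Cpb2* act on the dissolving of clots. Hepatocytes are the main source of nearly all of these plasma proteins, and C3, factor B and some others are also known to be made in adipose tissue and in skin.

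Hepatocyte expression of this kind is commonly studied through promoters that hold sites for the liver factors HNF1, HNF4 and C/EBP, so the letters upstream of the start sites were searched before the values were set out. RefSeq promoters of build GRCm38.p6, each running 250 bases before to 50 bases after a start, were at hand for 24 of the 32 members, and the other 8 (*Kng1*, *Cfb*, *C4b*, *Cfi*, *Proc*, *Plg*, *C2* and *Masp1*) were not searched. On either strand, the HNF1 half-site GTTAAT stood in 5 of the 24 (20.8%), against 7.10% of all 32851 promoters of that length. The HNF4 letters CAAAGNNCA stood in 5 of the 24 (20.8%), against 6.36% of all promoters, and the C/EBP letters TTGCNNAA in 7 (29.2%), against 10.8%. The interferon-response letters, TTTC followed after 2 free bases by TTTC, stood in 0 of the 24, against 3.44% of all promoters. A match is a description of these windows and shows no binding. The windows printed here show matches that lie wholly before the start, in 4 genes of the HNF1 set and 3 of the HNF4 set, printed along the gene from 5′ to 3′ between 34 and 206 bases before the start, with the match in capitals, which reads as the reverse complement where the motif lies on the other strand.
C8a, chr4:104876483-104876522, minus strand: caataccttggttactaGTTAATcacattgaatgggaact
C8b, chr4:104766094-104766133, plus strand: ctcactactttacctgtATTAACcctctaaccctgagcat
F13b, chr1:139501639-139501678, plus strand: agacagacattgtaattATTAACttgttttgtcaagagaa
Hc, chr2:35061464-35061503, minus strand: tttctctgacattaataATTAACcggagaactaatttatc
C8g, chr2:25500537-25500579, minus strand: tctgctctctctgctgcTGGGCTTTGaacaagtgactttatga
F7, chr8:13025983-13026025, plus strand: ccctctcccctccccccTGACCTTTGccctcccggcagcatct
F9, chrX:59999391-59999433, plus strand: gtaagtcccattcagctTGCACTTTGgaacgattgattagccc

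The probes themselves are 60 bases long, and the files place them on mouse build mm9. Of the 46 probes, 8 span more than 60 bases of the genome and so cross an exon junction, which means that they match spliced RNA better than genomic DNA. The probes used for *Cfb* and *F5* are of this kind, and they are printed because *Cfb* had a signal in fat and skin and *F5* had the smallest p between KO and WT fat. The second probes of *C2* and *C3*, which were measured beside the ones used, also cross a junction.
Cfb, chr17:34993502-34993858, minus strand: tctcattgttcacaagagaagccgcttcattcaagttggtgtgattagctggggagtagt
F5, chr1:166139728-166141916, plus strand: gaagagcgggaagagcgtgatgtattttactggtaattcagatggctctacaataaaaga
C2, second probe, chr17:35000126-35000301, minus strand: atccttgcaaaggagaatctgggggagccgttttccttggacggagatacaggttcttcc
C3, second probe, chr17:57364538-57364695, minus strand: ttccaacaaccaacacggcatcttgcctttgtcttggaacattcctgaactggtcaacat

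Levels are log2 intensities minus the 75th percentile of their own array, which thus sits at 0, and differences are on the log2 scale. Between 38.9% (skin KO 1) and 57.2% (fat KO 2) of probes were well above background on an array, and skin WT 1 was also dim, at 39.6%. The targeted gene *Mapk8* had log2 levels of -3.35, -2.98, -3.21 and -3.72 in KO fat, against -0.79, -0.96 and -1.01 in WT fat, and its log2 difference was -2.40 (SE 0.191), past the threshold by limma's moderated test with an adjusted p of 0.0252. In liver it had levels of -3.22, -4.68 and -4.48 in KO and -1.98, -1.68 and -1.61 in WT arrays, and in skin -4.46, -4.17, -5.18 and -5.24 in KO and -4.14, -2.42 and -2.16 in WT arrays. KO arrays lay below WT arrays in each tissue, in skin by a margin too small to separate skin WT 1 from KO. The tissues held their own markers, with all 17 hepatocyte markers well above background in liver, 16 of 16 adipocyte markers in fat and 11 of 11 keratinocyte markers in skin. Liver KO 1, KO 2 and WT 3 stood apart by skin and muscle transcripts, for example log2 levels of loricrin (*Lor*) of 3.29 and 5.34 in KO 1 and KO 2 and of 4.79 in WT 3, against 0.61 in KO 3 and -0.43 and -0.27 in WT 1 and WT 2. The scanner file labelled fat WT 2 resembled skin, with a keratin 14 (*Krt14*) level of 8.27 against -2.89 to -4.72 in the other WT fat arrays, and it was left out, while its column in the deposited value table resembled fat and was used in a separate fit.

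In liver, every member was well above background on all 6 arrays, from the lectins that open the cascade to the inhibitors that close it. *C3*, the central protein of complement, had log2 levels of 9.65, 9.95 and 10.24 in KO and 9.95, 10.25 and 9.47 in WT livers. Thrombin (*F2*) had log2 levels of 8.76, 8.83 and 9.18 in KO and 8.85, 9.0 and 8.35 in WT livers. Antithrombin (*Serpinc1*) had log2 levels of 8.63, 8.70 and 9.05 in KO and 8.75, 8.76 and 8.42 in WT livers. The KO and WT livers overlapped for all 3 genes, and the arrays of a group lay within about 1 log2 unit of each other.

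No member passed the test between KO and WT livers. Of 13314 genes tested in liver, 3 were called at an adjusted p below 0.05 (0.0225%), and 0 of the 32 members were among them. At an unadjusted p below 0.05 there were also 0 members, against 803 genes or 6.03% of all tested. The member differences ran between -0.22 and 0.40 on the log2 scale, with a median of 0.08 beside -0.01 over all genes, and 25 members were positive and 7 negative. The 17 hepatocyte markers had a median difference of 0.09, with 11 of 17 positive. By role, the 6 genes of the membrane attack complex were all positive, with a median difference of 0.16 and 0 of 6 past the test. The other medians were 0.01 in the 4 lectin pathway genes, 0.08 in the 5 genes of the convertases, 0.05 in the 10 procoagulant and contact factors, and 0.15 in the 7 anticoagulant and fibrinolytic genes.

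The members with the smallest p in liver were separated by little more than the spread of the arrays. *F7*, the protease that starts clotting with tissue factor, had log2 levels of 3.66, 3.78 and 4.27 in KO livers, against 3.73, 3.32 and 3.44 in WT livers, a log2 difference of 0.40 (SE 0.214, adjusted p = 0.923). *Hc*, which encodes the C5 protein, had levels of 7.68, 7.44 and 8.01 in KO livers, against 7.33, 7.47 and 7.41 in WT livers, a difference of 0.30 (SE 0.180, adjusted p = 0.963). In both genes the KO and WT arrays overlapped. *Cpb2*, a carboxypeptidase that slows clot lysis, had levels of 7.61, 7.78 and 7.77 in KO livers, against 7.57, 7.56 and 7.32 in WT livers, a difference of 0.24 (SE 0.148, adjusted p = 0.976). Antiplasmin (*Serpinf2*) had levels of 7.05, 7.36 and 7.75 in KO livers, against 7.22, 7.05 and 6.98 in WT livers, a difference of 0.30 (SE 0.206, adjusted p = 0.996). Mannose-binding lectin *Mbl1* had levels of 4.86, 5.08 and 5.41 in KO livers, against 4.82, 5.06 and 4.81 in WT livers, a difference of 0.22 (SE 0.188, adjusted p = 1.0). Of these 3 genes, the KO arrays of *Cpb2* alone all lay above the WT arrays, by a gap smaller than the spread among the WT arrays.

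On the lower side, *C2*, the protease subunit of a C3 convertase, had log2 levels of 5.63, 5.67 and 5.82 in KO livers, against 5.87, 5.84 and 5.86 in WT livers. Its log2 difference was -0.15 (SE 0.136, adjusted p = 1.0), with KO arrays all below WT arrays. *Cpb2* was thus the 1 member of 32 whose KO livers all lay above the WT livers, where 4.81% of all genes did so, and *C2* the 1 member whose KO livers all lay below, where 6.22% did so. *F9*, the factor lacking in haemophilia B, had levels of 3.62, 3.47 and 3.32 in KO livers, against 3.38, 3.58 and 4.11 in WT livers, a difference of -0.22 (SE 0.220, adjusted p = 1.0). *Pros1*, the cofactor of activated protein C, had levels of 2.91, 2.81 and 2.76 in KO livers, against 2.90, 2.88 and 3.12 in WT livers, a difference of -0.14 (SE 0.144, adjusted p = 1.0). *Masp1* had levels of 4.31, 4.02 and 4.08 in KO livers, against 4.25, 4.33 and 4.23 in WT livers, and *Proc* had 7.50, 7.82 and 8.07 in KO livers, against 7.97, 7.90 and 7.76 in WT livers, with differences of -0.13 (SE 0.147) and -0.08 (SE 0.185). The arrays of these 4 genes overlapped between genotypes. Without the 3 liver arrays with skin and muscle transcripts, which leaves 1 KO array against 2 WT arrays with the lone KO array assumed to vary like the others, the member median difference was 0.21, again with 0 members called, and *F7* differed by 0.74 and *Serpinf2* by 0.61, while *Proc* changed sign to 0.14. The part of those transcripts in the liver values was not tested further.

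**Figure D1:**
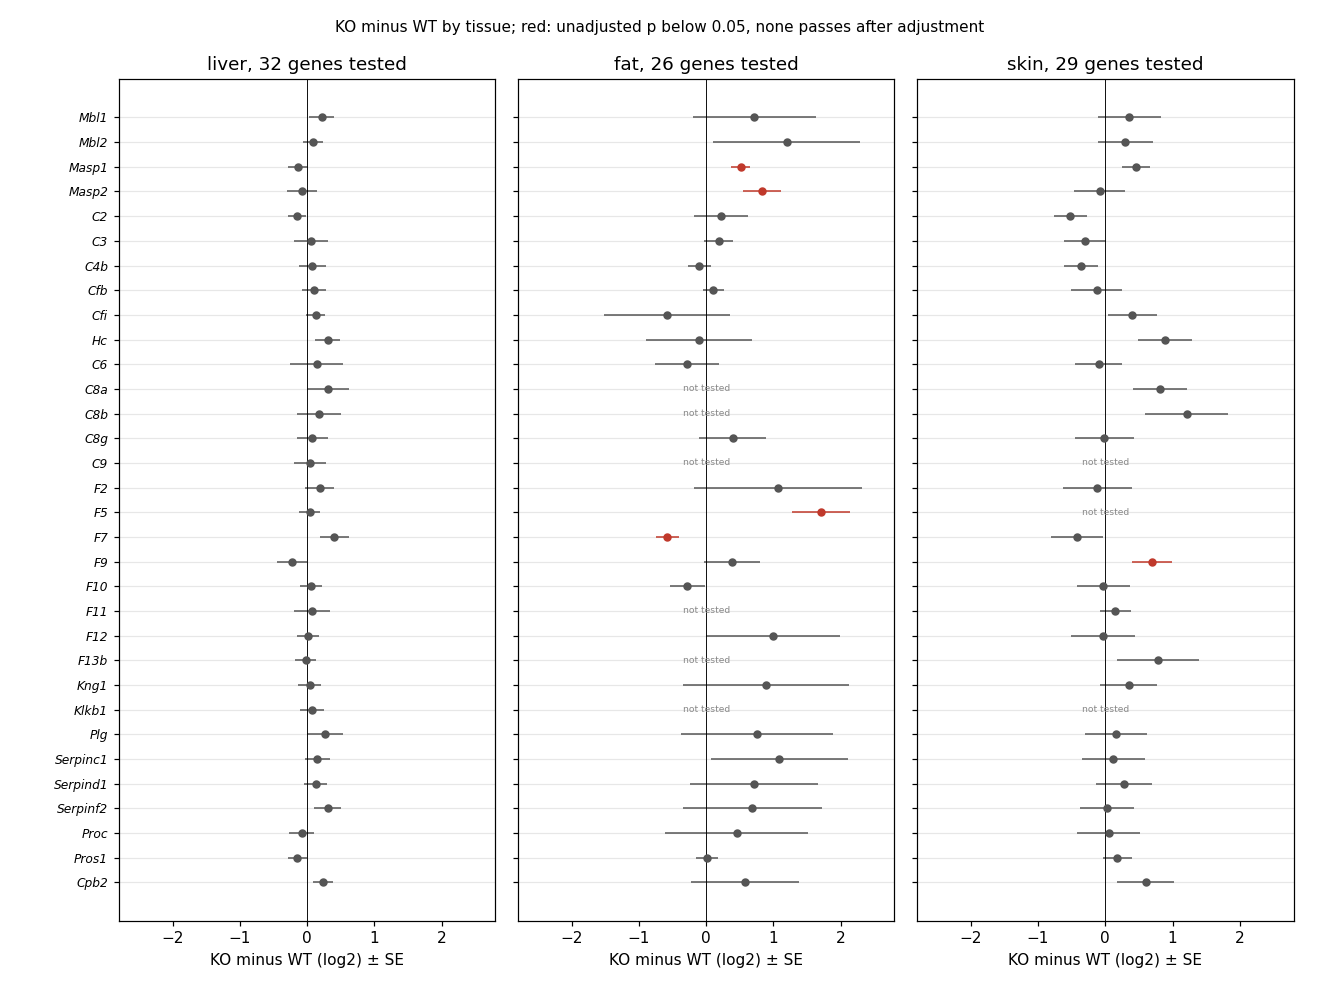
KO minus WT log2 difference of each member with its standard error in liver (3 KO and 3 WT arrays), fat (4 and 3) and skin (4 and 3), with members ordered by role down the page. Points in red have an unadjusted p below 0.05 and none passes after adjustment, the liver points lie between -0.22 and 0.40, and members with too few arrays above background are marked as not tested.

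The tissues differed far more than the genotypes. In WT animals 31 of the 32 members were called higher in liver than in fat, where 30.0% of the 15978 genes tested were called higher in liver, and 32 of 32 were called higher in liver than in skin, where 34.6% of 14831 genes were. The median difference of the members was 9.02 between liver and fat and 6.0 between liver and skin on the log2 scale, beside -0.04 and 0.14 over all genes. With the 7 members that had no WT fat array and the 4 that had no WT skin array well above background set at the lower bounds given further on, the medians were 8.82 and 6.0. Those 7 and 4 members are in the counts called. Since all their liver arrays were well above background, liver had to lie higher, and their calls are a description. The 17 hepatocyte markers, none of them a member, had medians of 9.48 and 6.0 in the same comparisons. Since the liver arrays serve both comparisons, the differences are given side by side and their likeness is not counted as a result. In KO animals 31 of 32 members were called higher in liver than in fat (31.4% of all genes) and 32 of 32 higher in liver than in skin (36.2% of all genes), with median differences of 8.68 and 5.91, or 8.63 and 5.91 with *C8b* and *C9* in fat at their bound. These 2 genes had no KO fat array well above background, so their calls against KO fat are likewise a description. In these bulk samples, fewer cells of a type and less RNA per cell cannot be told apart.

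**Figure D2:**
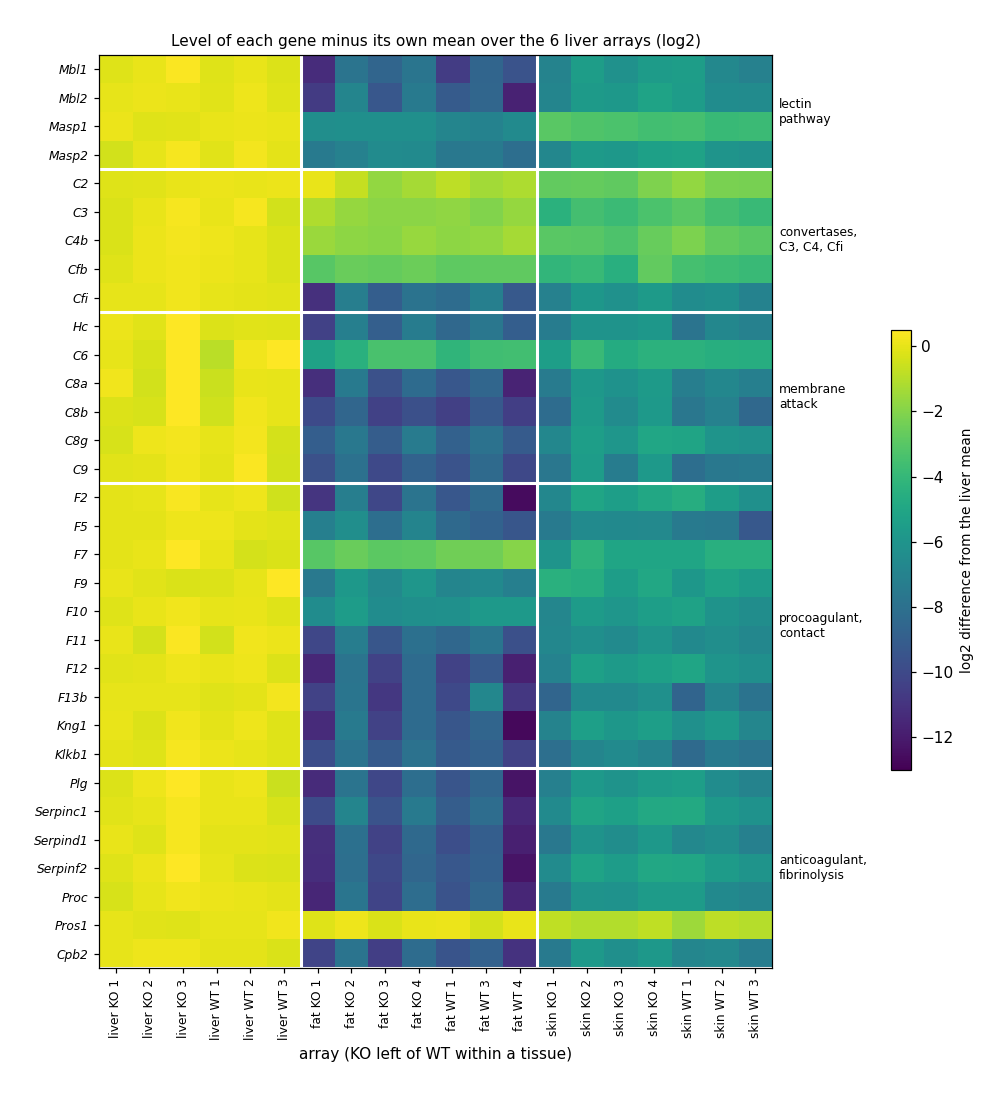
Log2 level of each member minus its own mean over the 6 liver arrays, with the 20 arrays across the page and the members grouped by role down the page. Yellow is the liver level, and the rows that stay light in fat are *Pros1*, *C2*, *C3*, *C4b*, *Cfb*, *F7* and *C6*, while most other rows are darker in fat than in skin and vary from one fat array to the next.

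A group of 7 members stayed closest to their liver level in fat, and 4 of them belong to the convertases. *Pros1* had log2 levels of 2.73, 3.03, 2.64 and 2.95 in KO fat and 3.0, 2.55 and 2.93 in WT fat, next to the liver levels given above. Its log2 difference between WT liver and WT fat was 0.14 (SE 0.183, adjusted p = 0.525), the one member that was not called. *C2* had log2 levels of 5.83, 5.11, 4.11 and 4.47 in KO fat and 4.96, 4.39 and 4.63 in WT fat. The fat arrays of *Pros1* overlapped its liver arrays, and those of *C2* overlapped them in KO through fat KO 1 alone. *C2* was higher in WT liver than in WT fat by 1.20 (SE 0.325, adjusted p = 0.00408), a 2.29-fold difference, but after quantile normalization of the arrays this difference was 0.26 (adjusted p = 0.558). In KO animals the difference of *C2* was 0.83 (SE 0.304, adjusted p = 0.0239), which did not pass without liver KO 3, fat KO 3 or fat KO 4 (adjusted p = 0.0724, 0.0890 and 0.0685) and was -0.09 after quantile normalization.

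*C3* had log2 levels of 8.80, 8.27, 8.06 and 8.05 in KO fat and 8.18, 7.88 and 8.26 in WT fat, all below its lowest liver array. The log2 difference between WT liver and WT fat was 1.78 (SE 0.300, adjusted p = 6.4e-05), or 3.43-fold. *C4b*, the other scaffold of the convertases, had levels of 5.70, 5.41, 5.32 and 5.66 in KO fat and 5.44, 5.53 and 5.90 in WT fat, with a difference between WT liver and WT fat of 1.56 (SE 0.227, adjusted p = 1.3e-05). The KO and WT fat arrays of both scaffolds overlapped. After quantile normalization the difference between WT liver and WT fat was 0.77 for *C3* (adjusted p = 0.0121) and 0.46 for *C4b* (adjusted p = 0.0393), in the deposited value table it was 0.98 and 1.0, and a second probe of *C3*, described with the other probes, gave a larger one. *Cfb*, the protease of the alternative pathway, had levels of 5.41, 5.86, 5.74 and 5.92 in KO fat and 5.59, 5.63 and 5.65 in WT fat, with a difference between WT liver and WT fat of 2.76 (SE 0.302, adjusted p = 4.7e-07), or 6.76-fold. *F7* had levels of 0.70, 1.09, 0.79 and 0.84 in KO fat and 1.26, 1.28 and 1.76 in WT fat, with a difference between WT liver and WT fat of 2.07 (SE 0.323, adjusted p = 2.8e-05), or 4.19-fold. *C6* had levels of -1.32, -0.54, 0.54 and 0.50 in KO fat and -0.29, 0.24 and 0.29 in WT fat, with a difference between WT liver and WT fat of 3.74 (SE 0.474, adjusted p = 2.7e-06). These 3 genes were well above background on all 7 fat arrays and below every liver array.

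The other members were further below liver. *F10*, the protease that makes thrombin, had log2 levels of 1.19, 2.08, 1.23 and 1.35 in KO fat and 1.41, 1.89 and 1.94 in WT fat, and its log2 difference between WT liver and WT fat was 5.88 (SE 0.343, adjusted p = 2.0e-10). The differences between WT liver and WT fat were 6.87 for *Masp1*, 6.97 for *F9* and 7.75 for *Masp2* and those of the remaining members lay between 8.14 (*Cfi*) and 10.44 (*F12*). Where no WT fat array was well above background, liver was at least 777-fold higher for *C8a*, 647-fold for *Mbl1*, 608-fold for *Klkb1*, 590-fold for *C8b*, 452-fold for *C9*, 451-fold for *F5* and 393-fold for *F11*. These bounds set the WT liver mean against the higher, on each array, of the probe's own signal and the lowest signal among probes well above background. By role, the median difference between WT liver and WT fat was 1.78 for the convertase genes, against 8.61 for the lectin pathway, 8.94 for the membrane attack genes, 9.02 for procoagulant factors and 9.92 for anticoagulant and fibrinolytic genes. With the 7 genes at their bound these medians were 8.54 for the lectin pathway and 8.70 for the membrane attack genes, and to 2 decimals the others were the same.

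In skin, *Pros1* and *C2* again stayed closest to liver. *Pros1* had log2 levels of 2.12, 1.83, 1.84 and 2.12 in KO skin and 1.44, 2.04 and 1.90 in WT skin, and its log2 difference between WT liver and WT skin was 1.18 (SE 0.180, adjusted p = 2.1e-05), or 2.26-fold. *C2* had levels of 3.05, 3.1, 3.0 and 3.65 in KO skin and 4.08, 3.59 and 3.50 in WT skin, and its difference between WT liver and WT skin was 2.14 (SE 0.324, adjusted p = 1.8e-05). Neither gene overlapped between liver and skin arrays. *C4b* had levels of 4.25, 4.20, 3.94 and 4.56 in KO skin and 5.06, 4.47 and 4.28 in WT skin, and *C3* had 5.56, 6.40, 6.09 and 6.62 in KO skin and 6.95, 6.39 and 6.06 in WT skin, with differences between WT liver and WT skin of 2.58 (SE 0.225) and 3.42 (SE 0.299). *Cfb* had levels of 4.32, 4.54, 3.96 and 5.68 in KO skin and 4.95, 4.73 and 4.58 in WT skin, with a difference between WT liver and WT skin of 3.63 (SE 0.301). *Masp1* had levels of 1.22, 0.98, 0.90 and 0.63 in KO skin and 0.71, 0.32 and 0.39 in WT skin, with a difference between WT liver and WT skin of 3.79 (SE 0.168). All these differences passed the test, and no skin array reached the lowest liver array of its gene. *F7* had levels of -2.32, -0.55, -1.36 and -1.35 in KO skin and -1.35, -0.80 and -0.78 in WT skin, with a difference between WT liver and WT skin of 4.47 (SE 0.322, adjusted p = 2.1e-09). The remaining members differed by 4.41 (*C6*) to 8.09 (*F5*), and for the members with no WT skin array well above background liver was at least 243-fold higher for *F5*, 197-fold for *C8b*, 192-fold for *Klkb1* and 167-fold for *C9*.

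Set against each other in WT animals, fat was called higher for 6 of the 30 members tested and skin for 18, where 30.9% and 26.6% of all 16100 genes were. The 6 were *F7*, higher in fat by 2.40 on the log2 scale (SE 0.323, adjusted p = 9.9e-06), *C3* by 1.64 (SE 0.300, adjusted p = 0.000212), *Pros1* by 1.04 (SE 0.183, adjusted p = 0.000152), *C4b* by 1.02 (SE 0.227, adjusted p = 0.00110), *C2* by 0.94 (SE 0.325, adjusted p = 0.0208) and *Cfb* by 0.87 (SE 0.302, adjusted p = 0.0209). The calls of *C2* and *Cfb* rest on single arrays, since *C2* did not pass without skin WT 2, skin WT 3 or fat WT 1 (adjusted p = 0.0573, 0.0699 and 0.0846) and *Cfb* did not pass without skin WT 3 or fat WT 4 (adjusted p = 0.0655 and 0.0509). *Masp1* went the other way, lower in fat than in skin by 3.08 on the log2 scale (SE 0.170, adjusted p = 3.0e-10), with fat arrays at -2.05 to -2.8 all below the skin arrays at 0.32 to 1.22. *C6* and *F10* did not pass between fat and skin (adjusted p = 0.237 and 0.997), with log2 differences of 0.67 and -0.0016. The convertase genes had a median difference between fat and skin of 0.94, the lectin pathway genes -3.12, the membrane attack genes -2.32, the procoagulant factors -1.41 and the anticoagulant and fibrinolytic genes -3.53. These groups were not uniform, since *Cfi* among the convertase genes had a difference of -1.61 (adjusted p = 0.0600), while *F7* and *Pros1* were higher, and no test of role was made. In KO animals 6 members were called higher in fat and 21 higher in skin, where 36.4% and 25.0% of all genes were. *C8a*, *Mbl1* and *F11* had no WT fat array well above background, and *C8b* no KO fat array, but they had some in skin of that genotype. Their differences there are a description. The hepatocyte markers also lay lower in fat than in skin. Of 15 tested, 0 were called higher in fat and 13 higher in skin, in WT and in KO animals alike. Their median differences between fat and skin were -3.74 in WT and -3.34 in KO animals.

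**Figure D3:**
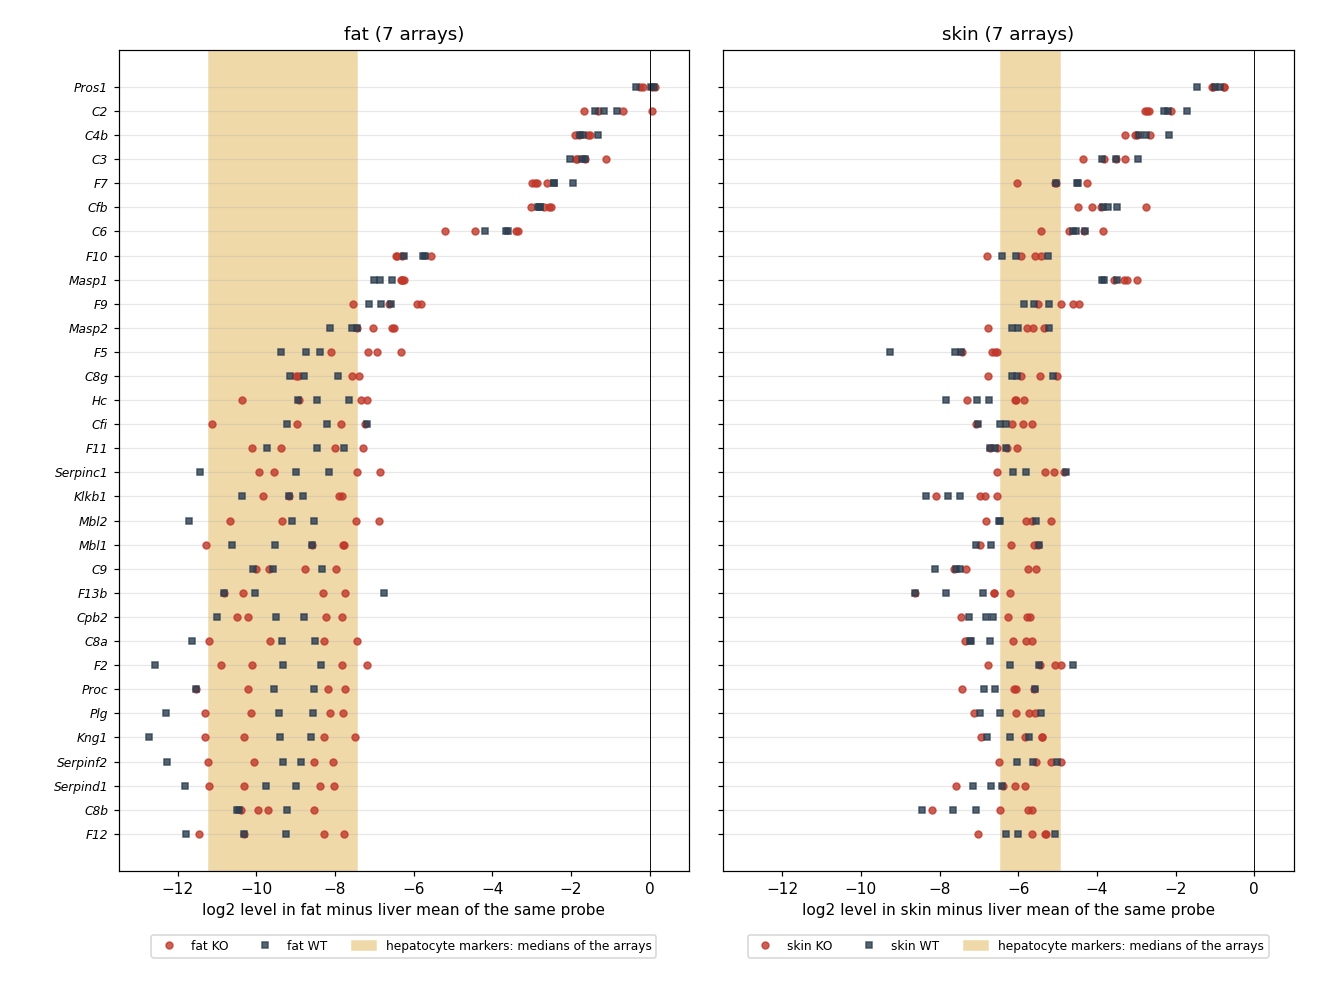
Log2 level of each member in fat (left, 7 arrays) and skin (right, 7 arrays) minus the mean of the same probe over the 6 liver arrays, KO arrays as circles and WT arrays as squares. The shaded band spans the per-array medians of the 17 hepatocyte markers, and the members at the top, led by *Pros1* at -0.06 in fat and -1.0 in skin on average, lie to the right of it.

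Hepatocyte marker transcripts had a signal in fat and skin too. In fat 26 of 32 members were well above background on at least 3 arrays, beside 14 of 17 hepatocyte markers and 55.7% of all genes. In skin 29 of 32 members were, beside 15 of 17 hepatocyte markers and 49.3% of all genes. The defining hepatocyte factor *Hnf4a* was well above background on no fat array and no skin array, while albumin (*Alb*) had log2 levels of 1.44, 4.96, 1.97 and 4.25 in KO fat and 2.59, 3.51 and 0.15 in WT fat. The summed log2 level of the hepatocyte list lay between 4.15 and 6.22 in KO fat and between 3.19 and 5.55 in WT fat. In skin it lay between 7.15 and 8.67 in KO and between 7.38 and 8.03 in WT arrays, beside 11.9 to 12.6 in KO and 11.8 to 12.4 in WT livers.

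The ups and downs of the markers across single fat arrays were those of many members. The median hepatocyte marker stood at log2 differences from its liver mean of -9.92, -7.44, -9.32 and -7.72 in KO fat and -9.16, -8.16 and -11.20 in WT fat. The median member stood at -9.94, -7.22, -9.09 and -7.62 in KO fat and -8.90, -8.05 and -9.63 in WT fat. Fat KO 2 was thus the highest array and fat WT 4 the lowest for the markers, and KO 2 was the highest for 21 of 32 members and WT 4 the lowest for 17. *F2*, for example, had log2 levels of -2.09, 1.63, -1.29 and 1.01 in KO fat and -0.50, 0.48 and -3.76 in WT fat, a range of 5.38 over the 7 arrays, where the hepatocyte markers had ranges of 1.57 to 5.48 with a median of 4.34. *Serpinc1* had levels of -1.22, 1.86, -0.84 and 1.28 in KO fat and -0.29, 0.56 and -2.72 in WT fat. How much of such a signal in fat and skin comes from hepatocyte RNA was not tested.

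More members followed this course over the fat arrays. *F12*, the contact factor, had log2 levels of -4.24, -0.55, -3.08 and -1.05 in KO fat and -3.08, -2.0 and -4.57 in WT fat. *Cfi*, the protease that inactivates C3b, had log2 levels of -3.15, 0.73, -0.99 and 0.13 in KO fat and -0.24, 0.78 and -1.24 in WT fat. *Hc* had log2 levels of -2.82, 0.37, -1.37 and 0.21 in KO fat and -0.90, -0.08 and -1.39 in WT fat. In all 3, KO 2 and KO 4 were the high KO arrays and WT 3 the high WT array, as for the markers. In skin the course was flatter, with the median hepatocyte marker at log2 differences from its liver mean of -6.43, -5.28, -5.69 and -4.95 in KO and -5.41, -5.53 and -6.08 in WT arrays. *F2* had log2 levels of 2.06, 3.75, 3.39 and 3.91 in KO skin and 4.22, 3.34 and 2.63 in WT skin. *F12* had log2 levels of 0.21, 1.92, 1.57 and 1.93 in KO skin and 2.17, 1.22 and 0.93 in WT skin. *Mbl2* had log2 levels of 1.75, 2.93, 2.77 and 3.40 in KO skin and 3.03, 2.12 and 2.09 in WT skin. KO 1 was the lowest KO skin array and WT 1 the highest WT skin array for these 3 genes, and KO 1 was the lowest skin array for 18 of 32 members.

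The members closest to their liver level had narrow ranges over the fat arrays. *Pros1*, *C3* and *C2* were closer to their own liver mean than every one of the 17 hepatocyte markers on 7 of 7 fat arrays, *C4b*, *Cfb* and *F7* on 6 of 7, and *C6* on 4 of 7. Their ranges over the 7 fat arrays were 0.48 for *Pros1*, 0.50 for *Cfb*, 0.58 for *C4b*, 0.92 for *C3*, 1.06 for *F7*, 1.72 for *C2* and 1.86 for *C6* on the log2 scale. *F10* lay 2.90 above the marker median in the middle array, with a range of 0.89, and *Masp1* lay 2.31 above it, with a range of 0.75. *F9* lay 2.32 above it, with a range of 1.73, and *Masp2* 1.59, with a range of 1.61, but *F5*, *Hc* and *Cfi*, at 1.11, 0.39 and 0.35 above it, had ranges of 3.06, 3.19 and 3.92. A narrower range was not particular to members far above the marker median. *C8g*, well above background on 7 of 7 fat arrays, lay 0.32 above it with a range of 1.75, between those of *C2* and *C6*. Neither *F10* nor *Masp1* exceeded every marker on any fat array, because *Cyp2e1* and *Mup1* also lay above their list's median, by 3.78 and 2.75. In skin *Pros1* exceeded every hepatocyte marker on 7 of 7 arrays, *C2* and *C4b* on 4, *Masp1* on 1, and *C3* and *Cfb* on 0, although these last 3 lay 2.05, 2.0 and 1.92 above the marker median in the middle array. No other member in skin lay more than 1.0 above it, the value of *C6*.

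The members with a signal on fewer than 3 fat arrays were *C8b* and *C9* on 0, *F11* and *Klkb1* on 1, and *C8a* and *F13b* on 2, and in skin *Klkb1* on 1 and *C9* and *F5* on 2. Without fat KO 2, KO 4 and WT 3, the arrays with the highest hepatocyte marker level, 21 members were detected on at least 3 of the 4 arrays left. This setting was chosen after the values had been seen, the count can only fall with fewer arrays, and no other 3 arrays were left out.

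No member passed the test between KO and WT fat. The smallest p were those of the coagulation cofactor *F5*, of *Masp1*, of *F7*, whose difference was negative, and of *Masp2*. Of 15258 genes tested in fat, 2 were called (0.0131%), and 0 of 26 members tested were. At an unadjusted p below 0.05 there were 4 members, against 1206 genes or 7.90% of all tested. *F5* had log2 levels of -2.95, -2.12, -3.90 and -2.71 in KO fat, against -4.17, -4.53 and -5.18 in WT fat, and was well above background on 4 KO arrays and 0 WT arrays. It therefore entered the test through the KO arrays alone, so that its KO arrays had to lie higher, and its values are a description: at least 3.26-fold higher in KO, with a fitted log2 difference of 1.71 (SE 0.429, adjusted p = 0.515). *Masp1* had levels of -2.12, -2.05, -2.09 and -2.09 in KO fat, against -2.65, -2.8 and -2.36 in WT fat, a log2 difference of 0.52 (SE 0.142, adjusted p = 0.537). *Masp2* had levels of -1.20, -0.81, -0.27 and -0.32 in KO fat, against -1.34, -1.21 and -1.88 in WT fat, a log2 difference of 0.83 (SE 0.279, adjusted p = 0.572). In the opposite direction, *F7* had levels of 0.70, 1.09, 0.79 and 0.84 in KO fat, against 1.26, 1.28 and 1.76 in WT fat, a log2 difference of -0.58 (SE 0.177, adjusted p = 0.564). For these 4 of 26 members, *F5* among them, the KO and WT arrays did not overlap, where 9.33% of all genes did not.

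The deposited value table gave 4 KO and 4 WT columns of fat on another scale, in log2 units whose centring is unknown. Here 0 of 26 members were called, where 0.00655% of all genes were. At an unadjusted p below 0.05 there were 3 members, *F5* among them, against 11.7% of all genes. The smallest p among the members was now that of *F7*, which had log2 values of 8.81, 9.27, 8.89 and 8.93 in KO fat, against 9.36, 9.64, 9.51 and 9.76 in WT fat, a log2 difference of -0.59 (SE 0.143, adjusted p = 0.264). *Masp1* had values of 6.38, 6.27, 6.32 and 6.26 in KO fat, against 5.85, 6.11, 5.98 and 5.87 in WT fat, a log2 difference of 0.35 (SE 0.105, adjusted p = 0.310). The KO and WT columns did not overlap for *F7* and *Masp1*, 2 of 26 members, where 7.11% of all genes did not. *F5* had values of 5.64, 6.20, 5.09 and 6.20 in KO fat, against 4.20, 5.58, 4.71 and 4.48 in WT fat. The scanner flags chose the genes tested here too, so *F5* again entered through KO arrays alone and its values are a description. Its fitted log2 difference was 1.04 (SE 0.348, adjusted p = 0.339). *Masp2* had values of 7.41, 7.81, 8.27 and 8.18 in KO fat, against 7.34, 7.99, 7.33 and 6.72 in WT fat, a log2 difference of 0.57 (SE 0.289, adjusted p = 0.488). The column of WT 2 overlapped the KO columns for both genes.

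**Figure D4:**
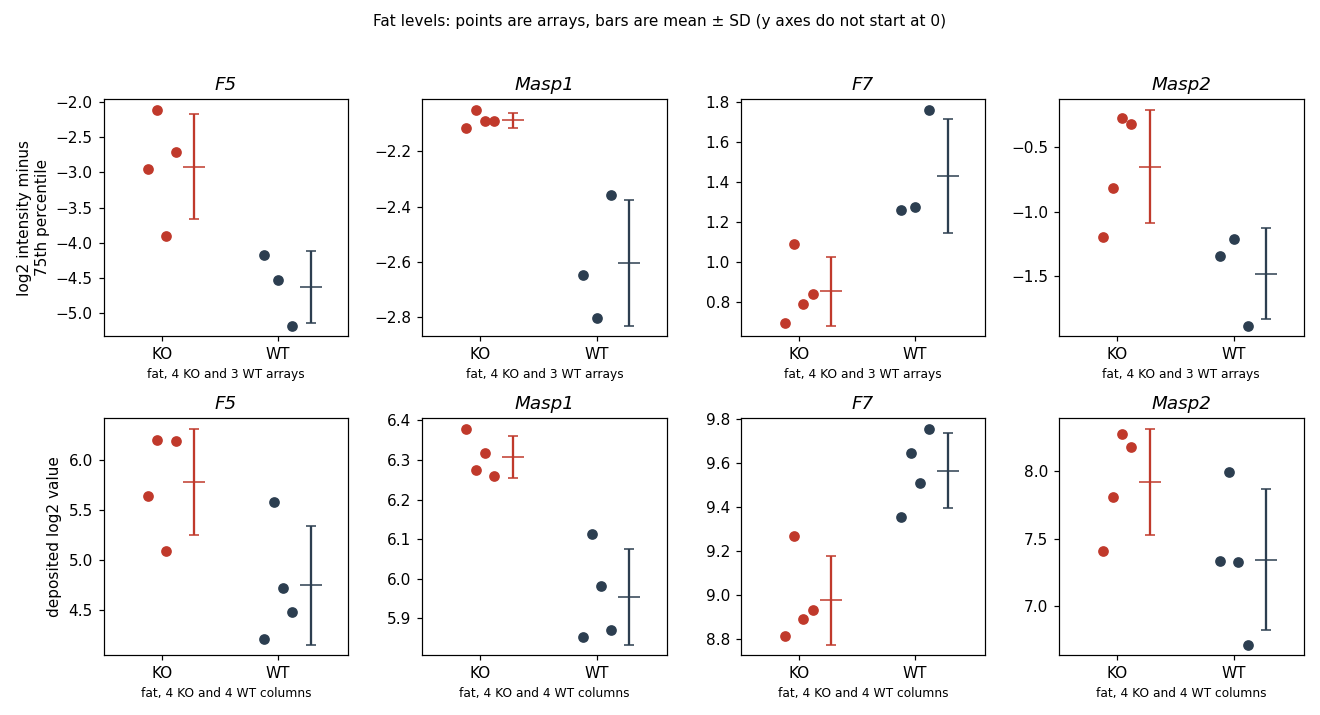
Levels of *F5*, *Masp1*, *F7* and *Masp2* in fat, KO left of WT, as scanner log2 intensities (top, 4 KO and 3 WT arrays) and as deposited log2 values (bottom, 4 and 4 columns), with points for arrays and bars for the mean ± SD. KO and WT points are apart in all 4 top panels, and in the bottom row they are apart for *Masp1* and *F7*.

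The other members in fat differed in both directions. The 26 members tested had a median log2 difference of 0.48, beside 0.06 over all genes, with 20 positive and 6 negative. *F5* and *Mbl1* are among the positive members, and their direction was set by the filter. The 14 hepatocyte markers tested had a median of 0.74, with 13 positive. In the value table, with WT 2 included, the member median was 0.07, with 15 positive and 11 negative, and the marker median was -0.02, with 6 of 14 positive. Over all markers and all members, tested or not, the WT 2 column had the highest median levels of the fat columns, 9.2 and 8.6. The next were those of KO 2, at 8.8 and 8.3. The part of the WT 2 column in the change of the medians was not tested. *Mbl2* had log2 levels of -2.08, 1.71, -0.77 and 1.12 in KO fat, against -0.52, 0.05 and -3.13 in WT fat, a log2 difference of 1.20 (SE 1.09, adjusted p = 0.818). *Serpinc1*, with the levels given above, differed by 1.09 (SE 1.02, adjusted p = 0.818), and *Cfi* by -0.59 (SE 0.934, adjusted p = 0.883). For these genes the KO and WT arrays overlapped widely. The convertase genes showed differences of 0.22 for *C2*, 0.18 for *C3*, 0.11 for *Cfb* and -0.10 for *C4b*, and *Pros1* of 0.01, with SE between 0.155 and 0.401. Among lower members, *F10* differed by -0.28 (SE 0.260, adjusted p = 0.818) and *C6* by -0.29 (SE 0.470, adjusted p = 0.886), which turned to 0.09 for *C6* without fat KO 1. *Mbl1*, like *F5*, entered the test through KO arrays alone, with 3 KO and 0 WT arrays well above background, and was at least 1.5-fold higher in KO fat. By role the median differences were 0.77 for the lectin pathway, or 0.71 with *Mbl1* at this bound, 0.11 for the convertases, -0.11 for 3 membrane attack genes, 0.90 for 7 procoagulant factors, *F5* included, and 0.69 for the 7 anticoagulant and fibrinolytic genes.

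Other cell types also differed between the fat arrays. The summed log2 level of the macrophage markers lay between 7.94 and 9.12 in KO fat and between 9.12 and 9.61 in WT fat, and that of the epididymis markers between -2.93 and 2.32 in KO fat and between -1.25 and 5.51 in WT fat. The secreted epididymal protein *Crisp1* had log2 levels of -5.95, -1.12, -4.74 and -5.70 in KO fat and 5.5, 5.05 and -1.73 in WT fat. *Lcn5*, another epididymal protein, had log2 levels of -6.24, 1.43, -0.88 and -5.17 in KO fat and -3.86, -3.69 and -6.24 in WT fat. Epididymal transcripts thus stood on arrays of both genotypes, *Crisp1* highest in WT 1 and WT 3 and *Lcn5* in KO 2 and KO 3. The summed log2 level of a list of red blood cell and platelet markers lay between 8.75 and 9.17 in KO fat and between 8.28 and 8.35 in WT fat. Of these markers 7 of 7 were positive, with a median log2 difference of 0.93 and 0 past the test. The part of these cell types in the fat differences was not tested. One slide held arrays of both genotypes, KO 2 and WT 4, and within it, as 1 array against 1 with the highest and the lowest hepatocyte marker median of the fat arrays, *F5* differed by 3.06, *Masp2* by 1.07, *Masp1* by 0.31 and *F7* by -0.67, with a member median of 1.75.

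No member passed the test between KO and WT skin, where 0 of 29 members and 0.0148% of 13505 genes were called. At an unadjusted p below 0.05 there was 1 member, *F9*, against 7.89% of all genes, and for 0 of 29 members did the KO and WT arrays not overlap, against 11.5% of all genes. *F9* had log2 levels of -0.87, -1.03, -1.91 and -1.33 in KO skin, against -2.28, -1.64 and -2.02 in WT skin, a log2 difference of 0.69 (SE 0.293, adjusted p = 0.555). *Hc* had levels of 0.24, 1.51, 1.48 and 1.71 in KO skin, against -0.27, 0.82 and 0.50 in WT skin, a log2 difference of 0.88 (SE 0.405, adjusted p = 0.555). In both, a single KO array lay within the WT range. *C8a* had levels of -1.99, -0.44, -0.77 and -0.28 in KO skin, against -1.86, -1.35 and -1.82 in WT skin, and *C8b* had -4.22, -1.66, -2.48 and -1.78 in KO skin, against -3.68, -3.08 and -4.47 in WT skin. Their log2 differences were 0.81 (SE 0.403) and 1.21 (SE 0.620), each with an adjusted p of 0.555, and in both genes KO 1 was the low KO array. *C8b* entered the skin test through 3 KO arrays alone, with 0 WT arrays well above background, so its direction was set by the filter, and it was at least 2.28-fold higher in KO skin. *Masp1* differed by 0.46 (SE 0.213, adjusted p = 0.555), with KO 4 inside the WT range.

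Of the 5 convertase genes, 4 had negative differences between KO and WT skin, none past the test. *C2* had a log2 difference of -0.52 (SE 0.245, adjusted p = 0.555), with KO 4 alone among the WT arrays. *C4b* differed by -0.36 (SE 0.253, adjusted p = 0.565), *C3* by -0.30 (SE 0.316, adjusted p = 0.658) and *Cfb* by -0.13 (SE 0.382, adjusted p = 0.886), and *F7* by -0.42 (SE 0.389, adjusted p = 0.622). Without the dim arrays KO 1 and WT 1, *C3* and *Cfb* turned to 0.15 and 0.07, and the member median was 0.68 against 0.15 with all arrays. The median of all genes in skin was -0.10, and the median of 15 hepatocyte markers was 0.34, with 13 positive. The hair follicle markers lay higher in KO skin, with summed log2 levels of 9.05 to 11.14 in KO and 5.48 to 7.75 in WT arrays, while 3 other lists lay lower. The skeletal muscle markers had summed log2 levels of 10.60 to 11.91 in KO and 11.89 to 12.11 in WT skin, with 0 of 10 positive and a median difference of -0.69. The endothelial markers had 3.99 to 4.61 in KO and 4.76 to 5.07 in WT skin, with 7 of 8 negative and a median of -0.52, and the adipocyte markers had 9.98 to 10.57 in KO and 10.58 to 10.85 in WT skin, with 13 of 16 negative and a median of -0.43. None of these markers passed the test, and the part of these cell types in the member differences was not tested.

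The effect of genotype was not shown to differ between tissues for any member. In the contrast of liver with fat 0 of 32 members were called, where 0.0563% of all genes were, in that of skin with fat 0 of 30 (0.435% of all genes), and in that of skin with liver 0 of 32 (0.202% of all genes). The smallest p belonged to *Masp1*, whose KO effect was lower in liver than in fat by 0.65 on the log2 scale (SE 0.233, adjusted p = 0.842) and higher in skin than in liver by 0.59 (SE 0.229, adjusted p = 0.538). *F7* had a KO effect that was higher in liver than in fat by 0.98 (SE 0.442, adjusted p = 1.0). *F5* had one that was lower in liver than in fat by 1.67 (SE 0.611, adjusted p = 0.847). In fat, *F5* was well above background on KO arrays alone, so its values here are a description too.

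Other genes of the cascades, which are receptors, regulators and initiators outside the 32, were not called between KO and WT in any tissue either. Of 34 other complement genes, 28, 30 and 27 were tested in liver, fat and skin, with median log2 differences of 0.07, -0.04 and -0.05. Of 32 other coagulation genes, 26, 25 and 25 were tested, with medians of 0.10, 0.12 and 0.02, and of 19 acute phase genes 18, 17 and 18 were tested, with medians of 0.10, 0.52 and 0.24. In liver the smallest p were those of tissue factor (*F3*), the receptor that binds factor VII, at a log2 difference of -0.62 (SE 0.187, adjusted p = 0.624), and of the fibrinogen chain *Fga*, at 0.68 (SE 0.237, adjusted p = 0.761). In fat they were those of the complement receptor subunits *Itgam*, at -1.34 (SE 0.321, adjusted p = 0.515), and *Itgb2*, at -1.11 (SE 0.305, adjusted p = 0.537), and of the C3b receptor *Vsig4*, at 0.82 (SE 0.197, adjusted p = 0.515). *Itgam* is also on the list of macrophage markers. Of 12 such markers tested in fat, 10 were negative and 2 positive, with a median log2 difference of -0.66. In skin they were those of serum amyloid A genes *Saa2*, at 1.20 (SE 0.297, adjusted p = 0.337), and *Saa1*, at 1.16 (SE 0.300, adjusted p = 0.391).

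Between tissues these other genes were called in both directions. In WT animals 15 of 32 other complement genes tested were called higher in liver than in fat and 11 lower, and of 27 other coagulation genes 14 were higher and 11 lower, where 30.0% of all genes were higher and 31.3% lower. Factor D (*Cfd*), the protease that activates factor B and is also called adipsin, had log2 levels of -0.94, 0.10 and -0.66 in WT liver, against 7.57, 7.38 and 7.33 in WT fat and 8.93, 8.27 and 7.99 in WT skin. Its log2 difference was -7.93 (SE 0.63) between WT liver and WT fat, and -8.89 (SE 0.63) between WT liver and WT skin. Tissue factor (*F3*), the partner of *F7*, had log2 levels of -0.00, -0.50 and -0.12 in WT liver, against 2.84, 2.48 and 2.96 in WT fat and 3.82, 3.33 and 3.18 in WT skin. Its log2 difference was -2.96 (SE 0.215) between WT liver and WT fat, and -3.65 (SE 0.214) between WT liver and WT skin. *Cfd* and *F3* were thus low in liver, where *Cfb* and *F7* had their highest levels. *Cfd* and *F3* are named here after their values had been seen.

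Of the members, 10 had more than 1 probe, and the probes of most of them gave like differences. The second probes of *C2* and *Pros1* had mean log2 differences between fat and liver of -1.07 and 0.11, beside -1.0 and -0.06 with the probes used. The junction probe of *C3* had a difference between fat and liver of -2.72 and between skin and liver of -4.76, beside -1.70 and -3.62 with the probe used. The *Masp2* difference between KO and WT fat was 0.78 and 0.77 with its other probes, which were well above background on 2 and 0 of 7 fat arrays. The probes of *Masp1* disagreed, since the one used lies at chr16:23468544-23468603 and was well above background on 6 of 7 fat and 7 of 7 skin arrays, while the other 3 were so on 0 fat arrays and on 1, 0 and 0 skin arrays. In liver the KO minus WT difference of *Masp1* was -0.13 with the probe used and -0.12, -0.83 and 1.23 with the others, of which the last was well above background on 1 of 6 liver arrays. The *Masp1* values in fat and skin therefore describe the transcripts that this probe reads, and which exon it covers was not analysed here. The second probe of *F9* was well above background on 0 fat and 0 skin arrays, and another probe of *Cpb2*, on the opposite strand, on 0 arrays. *C4b* has a near-identical copy, *C4a*, and *Kng1* a close paralogue, *Kng2*, so some of their signal may come from the copy.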

How the data were processed

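RNA (0.2 ug per array) was labelled in 1 colour and hybridised to Agilent mouse arrays. Intensities were extracted, background-subtracted and detrended by the authors with Agilent Feature Extraction 10.7.3.1, per the file headers and the submitters' processing notes, which also name limma. A deposited table holds log2 values of the same arrays. Comparison with the scanner intensities gave its scale as log2, while the centring and normalization stay unknown. Its column medians were 5.95, 5.96, 6.0 and 5.92 in KO skin, 5.94, 5.92 and 5.92 in WT skin, 5.87, 5.84 and 5.78 in KO liver, 5.79, 5.80 and 5.83 in WT liver, 5.83, 5.91, 5.80 and 5.76 in KO fat, and 5.86, 5.81, 5.83 and 5.82 in WT fat.

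Here, processed intensities became log2 values minus the 75th percentile of the array. Control spots were left out and no member's spot was saturated (0 of 46 probes). Where a gene name had several probes, the one with the highest mean over 20 arrays was used. Genes entered a test when 3 or more arrays of the tissues compared carried the scanner software's flag for a signal well above background. KO and WT were compared within each tissue, and tissues in 1 fit of 6 groups, with limma 3.58.1 (lmFit, eBayes, two-sided, R 4.3.3) and Benjamini-Hochberg adjustment over all genes tested, called at 0.05. The fat scanner file WT 2 was left out: it correlated at 0.779 with its own column of the deposited table, where every other array reached at least 0.972, while that column correlated with the other fat columns at 0.953 or more. Fat was therefore also tested on the deposited log2 values, 4 KO against 4 WT. The number of arrays limits the precision. The series text speaks of quadruplicates, and 3 or 4 arrays a group were analysed here. The KO against WT tests were also run on simulated arrays with noise independent between genes. The planted differences were larger than any fitted between KO and WT for a member here. That run thus says nothing on smaller differences or on variation shared between genes.

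The 32 members and the gene lists were chosen with earlier results of these data known. Values in every array are given for the 5 higher and 5 lower members with the smallest p per tissue, and for members closest to their liver level. Of other pathway lists, up to 4 genes with the smallest p per tissue could be named. Alternatives covered scaling, background correction, filters, probes, slides, replicate numbers and left-out arrays.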

Additional observations from a re-analysis of the deposited data

Results flagged for a closer look

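Among 55 sets of 4 KO arrays examined for a single array far from the others, 3 held one, and about 1 in 20 is found by chance. *C2* in skin KO 4 had a log2 level of 3.65, where the nearest of the other KO arrays had 3.1. *Hc* in skin KO 1 had a log2 level of 0.24, where the nearest had 1.48. *F13b* in skin KO 1 had a log2 level of -4.11, where the nearest had -2.1. Skin KO 1 was the array with the fewest probes well above background.

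The scanner file labelled fat WT 2, which no comparison uses, had a *Krt14* log2 level of 8.27, above the -4.72 to -2.89 of the other WT fat arrays.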

How the results depend on the processing

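No member was called between KO and WT in any tissue under any alternative run. Of single-gene differences under alternatives, 39 changed sign and 14 lost a call, and 7 member medians moved by more than the spread between arrays. The other 2167 values were counted as the same. For a single gene this means that the sign and the side of the threshold were kept. A member median was the same when it moved by less than that spread, even if its sign changed. A count was the same when its ratio stayed within a set limit. The KO minus WT medians in liver, in skin and in the deposited fat values changed sign when some single arrays were left out. The median of all genes shifted with the scaling, between WT liver and WT fat at -0.04 by the 75th percentile, -0.21 by quantile, 0.14 by median scaling and 0.15 after normexp. The cause was not tested where a setting changed a value. A random slide block could not be fitted in liver. Each slide held 1 group in liver and in skin, and 1 slide in fat held both. For liver and skin the fixed slide block was therefore run in 1 fit of 6 groups, where the other tissues link the slides.

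Between KO and WT livers, *Masp1* was 0.035 with the mean of its probes, *Mbl1* -0.39, *C2* 0.070, *F9* 0.25 and *Pros1* 0.19 with slide as a fixed block, and *Proc* 0.14 without KO 1, KO 2 and WT 3 and -0.22 to 0.068 leaving out single arrays. In fat, *F10* was 0.14 and *Cfi* 1.97 with the slide block, which there is the difference of KO 2 and WT 4 alone. With the left-out scanner file of WT 2, *Masp1* was -0.15, *F7* 0.12, *F10* 0.17, *C6* 0.13 and *C4b* 0.39. Leaving out single fat arrays gave -1.10 to 0.19 for *Cfi*, -0.54 to 0.086 for *C6*, -0.20 to 0.034 for *C4b* and, in the deposited table, -0.029 to 0.57 for *C2*. In skin the slide block gave a member median of 0.74 and *Cfb* 0.034. Without KO 1 and WT 1, *C3* was 0.15 and *Cfb* 0.071, and single arrays left out gave -0.48 to 0.092 for *Cfb*.

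Between WT liver and WT fat, *Pros1* was -0.31 by quantile, -0.069 by normexp and -0.17 in the deposited table, and *C2* 0.26 by quantile (adjusted p = 0.558). The member median was 6.96 by normexp and 7.83 in the deposited table, and between WT liver and WT skin 5.46 by normexp. Between WT fat and WT skin, *F10* was 0.14 by quantile, 0.016 by median scaling, 0.18 by normexp, 0.16 with the slide block, 0.23 in the deposited table and -0.25 to 0.33 leaving out single arrays, and *Cfb* 0.89 by median scaling (adjusted p = 0.0519). Between KO liver and KO fat, *C2* was -0.091 by quantile, 0.63 by normexp (adjusted p = 0.0566) and 0.40 in the deposited table (adjusted p = 0.265), *C3* 0.45 by quantile (adjusted p = 0.0936), and *Pros1* 0.11 by median scaling, 0.16 with the slide block and -0.079 to 0.049 leaving out single arrays. The member median was 6.55 by normexp between KO liver and KO fat and 5.38 by quantile between KO liver and KO skin, where *Pros1* was 0.41 in the deposited table (adjusted p = 0.0655). The median KO effect in skin minus liver was 0.80 with the slide block.

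Leaving out single arrays gave member medians between KO and WT of -0.04 to 0.17 in liver, 0.05 to 0.85 in fat, -0.16 to 0.36 in skin and -0.27 to 0.43 in the deposited fat values. Members called in the tissue comparisons then numbered 31 (WT liver and fat), 32 (liver and skin in both genotypes), 22 to 26 (WT fat and skin), 30 to 31 (KO liver and fat) and 26 to 27 (KO fat and skin). With a replicate block, 0 members were called between KO and WT, the medians were 0.08 in liver, 0.18 in fat and -0.02 in skin, and *F10* between WT fat and WT skin was 0.0017. Deviations of same-numbered KO and WT arrays correlated at -0.23 to 0.25. Those of same-numbered arrays from different tissues of a genotype correlated at -0.09 to 0.16. With 3 or 4 arrays a group, such values cannot decide whether the replicate numbers pair arrays.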
